A study of Mus musculus with 31 samples.

Results

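Prox1, Dsp, C1ql2, Tdo2 and Calb1 are expressed by the granule cells of the dentate gyrus, and their levels were followed in hippocampal RNA-seq as a set of 5 of the 15648 genes in the count table. Members were found by gene symbol, and each symbol stood on 1 row. The 5 genes were chosen by name with results of these counts already known. Measured differences between rAAV-OVA and rAAV-control mice, among them the Tdo2 decrease at 5 days, were part of what they were selected on. Their differences between the vectors are therefore given as a description, with no p-value, and the number past the limits used for other genes is given beside the share of all genes only.

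The tissue was the left hippocampus of 31 OT-I/Rag-/- mice, 1 library per mouse. Both alleles were shared by all mice: the OT-I transgene gives their T cells a receptor for a peptide of ovalbumin (OVA), and loss of Rag, given as Rag1 in the study's methods, leaves them without other mature T and B cells. Into both dorsal CA1 regions of these adult animals went either rAAV-hSyn-OVA-mCherry (rAAV-OVA mice) or rAAV-hSyn-mCherry (rAAV-control mice). The hSyn promoter limits expression to neurons in general and not to granule cells, and the vector was placed in CA1, not in the dentate gyrus. Each vector had 4 mice at 2, 5, 8 and 28 days, except for 3 rAAV-control mice at 8 days. By label, 23 mice were in batch 1 and 8 in batch 2, with all mice of 5 and 8 days in batch 1 and 2 mice of each batch in every group at 2 and 28 days.

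Granule cells are the principal excitatory neurons of the dentate gyrus. They receive cortical input through the perforant path and contact CA3 pyramidal cells through mossy fibres, and they are one of the few neuron types that are added in the adult brain. Prox1 encodes the homeobox transcription factor that sets and keeps granule cell identity, and Calb1 encodes calbindin, a calcium buffer that mature granule cells contain in large amounts and can lose in epileptic tissue. Neither gene belongs to granule cells alone. Prox1 is also found in a class of interneurons and in part in the oligodendrocyte lineage. Calb1 is also found in CA1 pyramidal cells, interneurons and regions around the hippocampus.

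The counts per mouse summed to between 19046977 and 57407902, with a median of 27024978. Levels are given in CPM, counts of a gene per 1000000 counts of a library after TMM scaling, and the scaling factors ran from 0.897 to 1.11. Bulk tissue cannot tell fewer granule cells from less RNA of a gene per cell. All 5 members and the 12 genes of a second granule cell list had counts in every mouse. This alone does not show granule cell RNA in each library, since other cells express some of these genes.

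Among the 31 libraries, 3 stood apart from their groups in the summed level of immune or neuronal genes, and 2 more in that of the choroid plexus gene Ttr. In rAAV-OVA replicate 4 at 28 days, the summed level of 4 T cell and monocyte genes was 8.31 CPM, against 106 to 228 CPM in the other rAAV-OVA mice of that day. The same library had 668 CPM of Penk, against 16.1 to 75.3 CPM in the other mice of all groups, and 256 CPM of Slc32a1, against 32.1 to 72.0 CPM. In rAAV-control replicate 2 at 8 days, the T cell and monocyte sum was 44.2 CPM, against 2.51 and 3.66 CPM in the other rAAV-control mice of that day. For rAAV-OVA replicate 3 at 28 days, 10 pan-neuronal genes summed to 3365 CPM, the lowest of all mice. Ttr ran from 13.8 to 4885 CPM over all mice, and within the groups of 2 and 5 days it stood apart at 4885 CPM in rAAV-OVA replicate 2 at 2 days, against 64.7 to 139 CPM in the other rAAV-OVA mice, and at 3515 CPM in rAAV-control replicate 2 at 5 days, against 19.4 to 98.1 CPM. The rAAV-control mice at 2 days had 566 to 1920 CPM, all above those 3 rAAV-OVA mice, and at 28 days rAAV-control replicate 3 had 34.3 CPM against 1368 to 3940 CPM in the others. The part of this in the levels of the members was not tested. Without that rAAV-OVA mouse, the Log2FC at 2 days was 0.30 for Prox1, 0.43 for Dsp, 0.11 for C1ql2, 1.03 for Tdo2 and 0.46 for Calb1. Without rAAV-control replicate 2, that at 5 days was −0.12 for Prox1, −0.56 for Dsp, −0.49 for C1ql2, −3.07 for Tdo2 and −0.67 for Calb1. For the 5 members, the Log2FC at 8 and 28 days is given with and without those of the first 3 libraries that belong to the day. For other genes this is done where leaving one out ended a call or moved a Log2FC by more than 1.5 times. Ratios of the members to the summed level of a list are given with all libraries only.

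Promoter sequences were taken from RefSeq for the mouse build GRCm38.p6, another build than that of the counts. It held windows of 300 bases for 4 of the members. Shown are those of the transcription factor Prox1, of Dsp and of Tdo2, whose Log2FC at 5 days was the smallest, an intermediate and the largest in size, each from 250 bases before to 50 bases after a transcription start. Capitals mark matches on either strand to any of 4 motifs. Searched were TGANTCA, the letters of an AP-1 site, then TGACGTCA, the letters of a CRE, then CAGATG, an E-box as proneural factors bind it, and lastly TATAAA, the TATA box.
Prox1, first window, chr1:190170778-190171077, minus strand: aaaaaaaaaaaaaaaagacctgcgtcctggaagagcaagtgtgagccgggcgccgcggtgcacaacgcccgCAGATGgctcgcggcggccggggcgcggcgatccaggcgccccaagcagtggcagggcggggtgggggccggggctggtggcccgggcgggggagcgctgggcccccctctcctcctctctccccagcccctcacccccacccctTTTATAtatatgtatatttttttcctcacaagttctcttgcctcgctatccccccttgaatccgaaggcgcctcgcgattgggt
Dsp, chr13:38151044-38151343, plus strand: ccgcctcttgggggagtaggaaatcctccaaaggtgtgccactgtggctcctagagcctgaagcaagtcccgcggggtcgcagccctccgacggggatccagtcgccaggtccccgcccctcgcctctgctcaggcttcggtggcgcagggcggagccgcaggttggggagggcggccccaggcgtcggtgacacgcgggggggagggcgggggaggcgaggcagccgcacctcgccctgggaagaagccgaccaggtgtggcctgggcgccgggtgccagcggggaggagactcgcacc
Tdo2, chr3:81975679-81975978, minus strand: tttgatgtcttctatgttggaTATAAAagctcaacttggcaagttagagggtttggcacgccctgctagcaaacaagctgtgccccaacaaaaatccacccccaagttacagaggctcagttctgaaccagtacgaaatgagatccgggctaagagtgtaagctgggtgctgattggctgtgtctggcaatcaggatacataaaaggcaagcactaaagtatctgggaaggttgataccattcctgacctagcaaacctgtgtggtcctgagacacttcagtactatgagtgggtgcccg
The Prox1 window held 1 E-box match 179 bases and 1 TATA box match 34 bases before the start, and the Tdo2 window 1 TATA box match 229 bases before it. Of all 32851 promoters, 17.2% held the E-box letters, 13.6% those of the TATA box, 7.81% those of AP-1 and 1.79% those of CRE. GC content was 47.7% for Tdo2, at or above 32% of promoters, and 73% for Dsp, at or above 94.5%. No stretch of the C1ql2 window or of a second Prox1 window matched these letters, which says nothing of the factors.

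Prox1 had the smallest difference of the 5 genes at 5 days. Its level was 171, 92.4, 82.2 and 80.1 CPM in rAAV-OVA mice and 129, 144, 87.1 and 97.5 CPM in rAAV-control mice of that day. A single rAAV-OVA mouse was thus the highest of all 8, and the groups overlapped. The means were 106 ± 43.4 and 114 ± 26.5 CPM (mean ± SD, n = 4 each), and the Log2FC of rAAV-OVA over rAAV-control was −0.17 (SE 0.29), or −0.38 without that mouse. It turned to 0.05 without rAAV-OVA replicate 3, so the sign at 5 days rested on single mice. At 28 days Prox1 stood at 94.1, 129, 43.5 and 98.1 CPM in rAAV-OVA mice and at 147, 138, 118 and 135 CPM in rAAV-control mice. Of the rAAV-OVA mice, 3 were below every rAAV-control mouse. The means were 91.1 ± 35.2 and 135 ± 12.2 CPM. The Log2FC was −0.68 (SE 0.29), which was −0.57 without replicate 4 and −0.38 without replicate 3. Within batch 1 it was −0.14 and within batch 2 it was −1.03. In between, at 8 days, levels of 66.6, 124, 89.1 and 96.0 CPM in rAAV-OVA mice overlapped with 82.2, 133 and 156 CPM in rAAV-control mice, with a Log2FC of −0.22 (SE 0.30) and the same value without rAAV-control replicate 2. With any other mouse left out it ran from −0.56, without rAAV-OVA replicate 2, to 0.01, without rAAV-OVA replicate 1.

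Dsp encodes desmoplakin, which ties intermediate filaments to desmosomes and in the hippocampus marks granule cells. The meninges are another possible source of Dsp. Dsp was lowest relative to the control vector at 28 days, when rAAV-OVA mice had 37.7, 57.6, 20.7 and 28.1 CPM. The rAAV-control mice had 82.7, 74.8, 60.5 and 89.9 CPM, and the groups did not overlap. The mean of 36.0 ± 15.97 CPM was 46.8% of the rAAV-control mean of 77.0 ± 12.6 CPM (n = 4 each), with a Log2FC of −1.34 (SE 0.40). Without replicate 4 the Log2FC was −1.12 and without replicate 3 it was −1.01. Within batch 1 it was −0.61 and within batch 2 it was −1.71. At 5 days the levels were 22.8, 48.0, 38.6 and 34.2 CPM in rAAV-OVA mice and 60.2, 78.9, 35.5 and 42.7 CPM in rAAV-control mice. They overlapped, with a Log2FC of −0.70 (SE 0.38). At 8 days they overlapped again, at 28.4, 63.8, 47.3 and 49.1 CPM against 26.5, 80.5 and 75.5 CPM, and the Log2FC was −0.15 (SE 0.40), or −0.018 without rAAV-control replicate 2. Over all mice left out in turn, the value at 8 days ran from −0.57 to 0.17 and that at 5 days from −0.92 to −0.46.

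C1ql2 encodes a secreted C1q-like protein that granule cells release at their mossy fibre synapses, where it helps to organize the postsynaptic receptors. It was lower in every rAAV-OVA mouse at 5 days, with 62.3, 57.8, 83.2 and 72.1 CPM against 92.9, 110, 98.5 and 96.8 CPM in rAAV-control mice. The mean was 69.1% of that of rAAV-control mice, with 68.8 ± 11.3 and 99.6 ± 7.45 CPM (n = 4 each) and a Log2FC of −0.49 (SE 0.35). At 8 days the rAAV-OVA mice had 31.9, 65.2, 47.9 and 50.6 CPM and the rAAV-control mice 61.9, 110 and 155 CPM. Only the second rAAV-OVA mouse reached above the lowest rAAV-control mouse. The mean of 48.9 ± 13.6 CPM (n = 4) was 44.9% of 109 ± 46.4 CPM (n = 3), with a Log2FC of −1.06 (SE 0.37) and −1.05 without rAAV-control replicate 2. It ran from −1.34 to −0.75 when any mouse was left out. At 28 days 3 of the 4 rAAV-OVA mice lay within the range of the rAAV-control mice, at 64.3, 59.4 and 62.1 CPM against 76.0, 68.3, 74.0 and 59.0 CPM, and replicate 3 had 13.7 CPM. The Log2FC was −0.45 (SE 0.36), which was −0.16 without that mouse and −0.39 without replicate 4. Within batch 1 it was −0.055 and within batch 2 it was −0.96.

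Tdo2 encodes tryptophan dioxygenase, the enzyme that opens the tryptophan ring at the entry to the kynurenine pathway, and is known from liver as well as from granule cells. At 5 days it stood at 0.155, 1.73, 0.498 and 0.742 CPM in rAAV-OVA mice, from 4, 56, 15 and 22 counts. In rAAV-control mice it stood at 7.16, 5.77, 5.71 and 4.41 CPM, from 160, 158, 154 and 246 counts. The highest rAAV-OVA mouse was below the lowest rAAV-control mouse, and the mean of 0.780 ± 0.674 CPM was 13.5% of 5.76 ± 1.12 CPM (n = 4 each). The Log2FC was −3.09 (SE 0.47), between −3.62 and −2.74 when any mouse was left out. At 8 days the levels were 2.27, 4.58, 3.65 and 4.22 CPM in rAAV-OVA mice and 3.72, 6.10 and 9.11 CPM in rAAV-control mice, which overlapped. The Log2FC was −1.001 (SE 0.44), or −1.09 without rAAV-control replicate 2, and ran from −1.27 to −0.70 with any mouse left out. At 28 days the levels were 4.27, 4.19, 1.10 and 2.59 CPM against 5.85, 6.18, 5.52 and 4.21 CPM, with a slight overlap and a Log2FC of −0.98 (SE 0.44). Without replicate 3 that value was −0.43, and without replicate 4 it was −0.94. Across batches it was −0.16 in batch 1 alone and −1.73 in batch 2 alone.

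Calb1 was at 42.5, 85.5, 51.5 and 52.1 CPM in rAAV-OVA mice at 5 days and at 136, 108, 104 and 84.5 CPM in rAAV-control mice. The second rAAV-OVA mouse overlapped with the lowest rAAV-control mouse and the other three lay below. The mean of 57.9 ± 18.9 CPM was 53.5% of 108 ± 21.4 CPM (n = 4 each), with a Log2FC of −0.72 (SE 0.29), which ran from −0.88 to −0.48 with any mouse left out. At 8 days the groups overlapped at 65.1, 125, 77.5 and 80.6 CPM against 104, 79.1 and 122 CPM, with a Log2FC of −0.29 (SE 0.31), or −0.36 without rAAV-control replicate 2 and −0.018 without rAAV-control replicate 3. At 28 days the rAAV-OVA mice spread from 38.1 to 178 CPM, through 73.7 and 110 CPM, while the rAAV-control mice had 112, 122, 98.3 and 115 CPM. The mouse at 178 CPM was replicate 4, the library with Penk at 668 CPM, and the part of that tissue difference in its Calb1 level was not tested. The Log2FC was 0.03 (SE 0.29), which was −0.35 without it and 0.16 without replicate 3. Within batch 1 it was −0.16 and within batch 2 it was −0.14.

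At 2 days none of the 5 genes was lower on average. Tdo2 had 6.58, 6.65, 4.61 and 6.87 CPM in rAAV-OVA mice and 5.67, 1.53, 2.52 and 2.74 CPM in rAAV-control mice. These values overlapped through the first rAAV-control mouse, and the Log2FC was 0.94 (SE 0.40). Calb1 had 107, 95.3, 87.0 and 104 CPM against 96.8, 50.1, 76.1 and 64.6 CPM, with a Log2FC of 0.47 (SE 0.28). The Log2FC was 0.24 for Prox1, 0.27 for Dsp and 0.12 for C1ql2, with SE from 0.27 to 0.36. With any mouse left out, these 3 values fell as low as −0.092, −0.17 and −0.17, the first and second without rAAV-OVA replicate 4 and the third without rAAV-control replicate 1, while Tdo2 ran from 0.77 to 1.21 and Calb1 from 0.34 to 0.54.

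**Figure D1:**
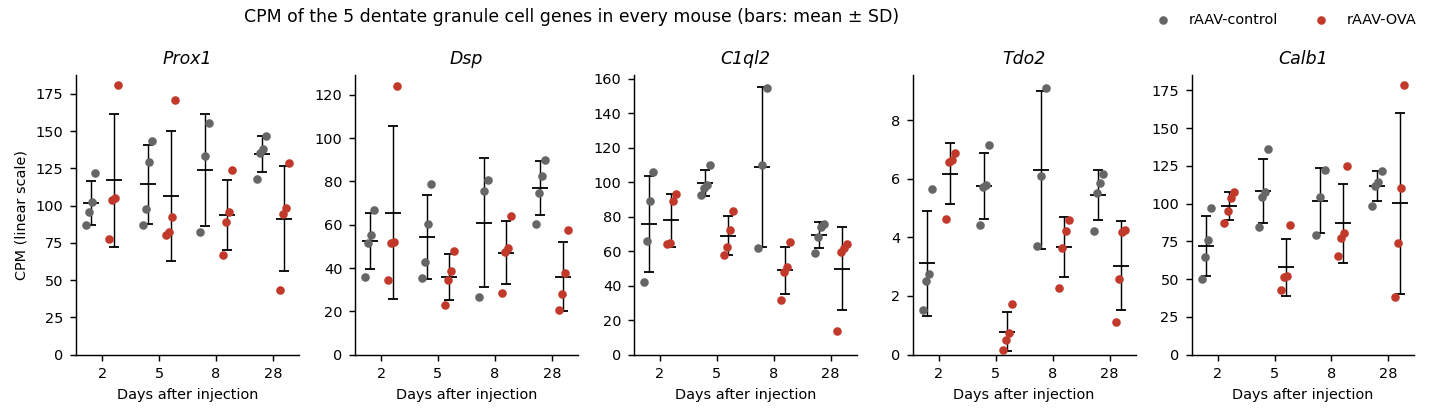
CPM (linear axis) of Prox1, Dsp, C1ql2, Tdo2 and Calb1 in each of the 31 mice against days after injection, grey for rAAV-control and red for rAAV-OVA, with the mean and SD of each group as bars. The 4 rAAV-OVA mice at 5 days have between 0.155 and 1.73 CPM of Tdo2, below the 4 rAAV-control mice of that day, while Prox1 overlaps on every day.

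The order of the 8 group means differed between the genes. Prox1, Dsp and Calb1 were highest in rAAV-control mice at 28 days, and C1ql2 and Tdo2 in rAAV-control mice at 8 days. The lowest group mean was that of rAAV-OVA mice at 28 days for Prox1, at 8 days for C1ql2 and at 5 days for Dsp, Tdo2 and Calb1. For each gene, all 7 pairs of neighbours in this order had overlapping mice. Groups sorted by their means lie close to their neighbours, so this overlap does not show whether a group stood apart. Groups of the same day that did not overlap are given below.

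Limits were set at an FDR of 0.05 and an absolute Log2FC of 0.66. At 5 days Tdo2 was the member below both, where 4.67% of all genes were called lower, and at 8 days it was C1ql2, where 0.588% were. Dsp was the one at 28 days, where 4.86% of genes were called lower, and at 2 days there was none, where the share was 0% of genes. With DESeq2, 10 genes passed both limits at 2 days in either direction, and 1428 had an unadjusted p under 0.05 in edgeR. Because the members were selected on these differences, nothing is read from the counts. Groups that did not overlap, with every rAAV-OVA mouse lower, were seen for C1ql2 and Tdo2 at 5 days and for Dsp at 28 days, against 19.6% of all genes at 5 days and 14% at 28 days. At 2 and 8 days no member was of this kind, against 1.94% and 11.9% of all genes. The median Log2FC of the members was 0.27, −0.70, −0.29 and −0.68 at 2, 5, 8 and 28 days, and that of all genes between −0.03 and 0.01. With 1 mouse left out, the number of members past the limits at 8 days was 0 in 19 of 31 fits, the one without rAAV-control replicate 2 among them. At 28 days it was 0 without rAAV-OVA replicate 3 or 4 of that day, rAAV-OVA replicate 4 at 2 days or rAAV-control replicate 1 at 8 days, and 2 without rAAV-OVA replicate 2 at 28 days or replicate 1 at 8 days. At 5 days it was 2 in 6 fits, those without rAAV-OVA replicate 2 or rAAV-control replicate 4 at 5 days, rAAV-OVA replicate 3 or 4 or rAAV-control replicate 3 at 28 days, or rAAV-control replicate 1 at 2 days.

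**Figure D2:**
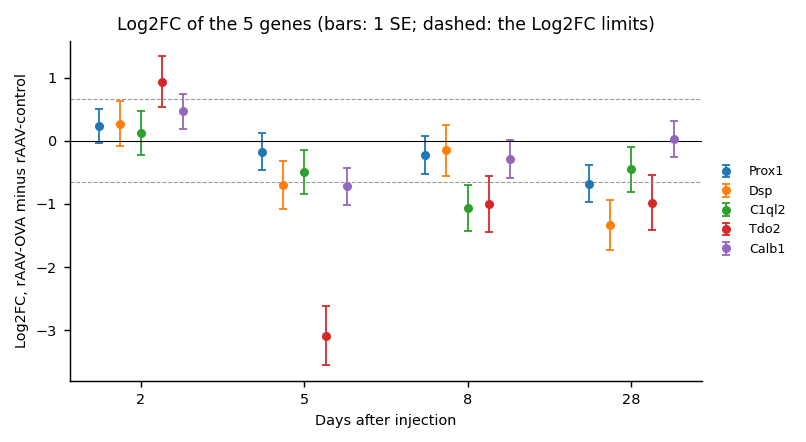
Log2FC of rAAV-OVA over rAAV-control mice for the 5 genes against days after injection, with bars of 1 SE and dashed lines at the Log2FC limits of 0.66. Tdo2 at 5 days lies at −3.09, and the other 4 genes at that day lie between −0.72 and −0.17.

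The levels of the 5 genes were also set side by side in single mice, as a description. At 5 days the share of the rAAV-control mean left in the 4 rAAV-OVA mice was 2.69%, 29.9%, 8.63% and 12.9% for Tdo2. In the same mice Prox1 stood at 150%, 80.9%, 71.9% and 70.0% of the mean. Tdo2 was the lowest of the 5 genes in each of these mice by this measure, and replicate 1 combined the lowest Tdo2 with the highest Prox1. The Tdo2 decrease at 5 days was part of what the members were selected on, so nothing is read from its rank. At 28 days replicate 3 was below every rAAV-control mouse for all 5 genes, with 32.3% of the rAAV-control mean for Prox1, 26.9% for Dsp, 19.8% for C1ql2, 20.2% for Tdo2 and 34.2% for Calb1. In that library the pan-neuronal sum of 3365 CPM was also the lowest. Its leptomeningeal sum of 6 genes was 264 CPM and its Ttr level 4844 CPM, against 37.5 to 54.4 CPM and 56.5 to 360 CPM in the other rAAV-OVA mice of that day. The part of these differences in the levels of the members was not tested. The number of members below all rAAV-control mice was 4, 2, 4 and 5 in the rAAV-OVA mice at 5 days, 4, 0, 3 and 1 at 8 days, and 3, 2, 5 and 3 at 28 days. At 2 days it was 2 in replicate 2 and 0 in the others.

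**Figure D3:**
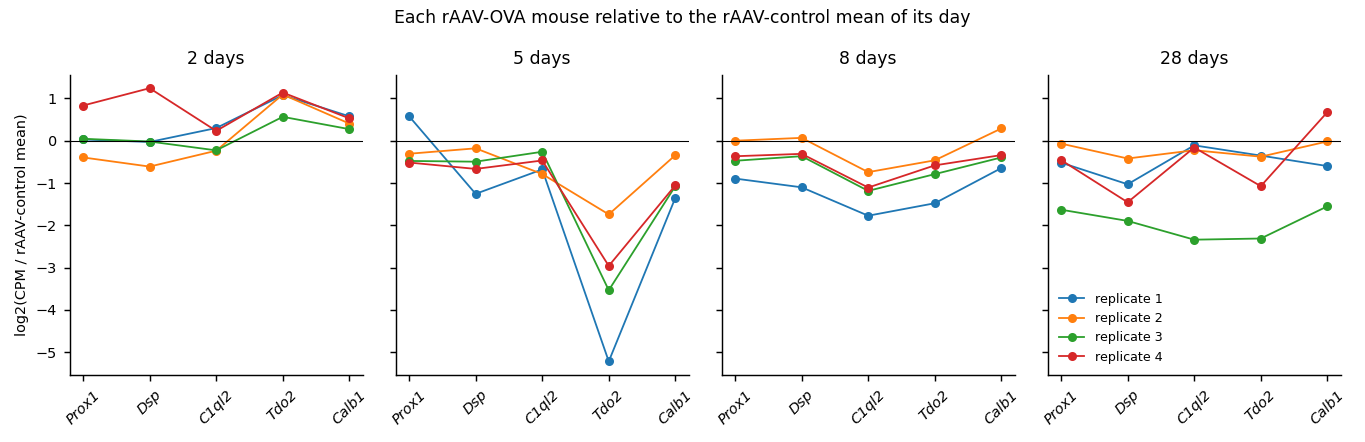
log2 of the CPM in each rAAV-OVA mouse over the rAAV-control mean of its day for the 5 genes, 1 line per mouse and 1 panel per day. At 5 days all 4 lines dip at Tdo2, while at 28 days replicate 3 is low for every gene and replicate 4 is above 0 for Calb1.

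Pan-neuronal genes served as a measure of neuronal RNA, and 0 of the 10 passed both limits at 5 days in edgeR. Their sum lay between 5730 and 6436 CPM in rAAV-OVA mice of that day and between 7575 and 9072 CPM in rAAV-control mice, without overlap. Set against that sum, Tdo2 had 0.125 ± 0.107 CPM per 1000 pan-neuronal CPM at 5 days in rAAV-OVA mice. This was 17.7% of the 0.707 ± 0.0881 found in rAAV-control mice, again without overlap. The same ratio was 125% of the rAAV-control mean for Prox1, 91.0% for C1ql2, 87.4% for Dsp and 70.9% for Calb1, each of them with overlap. The Prox1 value was raised by rAAV-OVA replicate 1, with 29.8. The other rAAV-OVA mice had 12.4 to 14.8 and the rAAV-control mice 11.2 to 17.9. At 8 days the ratio was 56.1% for C1ql2, 73.4% for Tdo2, 93.7% for Dsp, 94.8% for Prox1 and 110.3% for Calb1. The rAAV-control means for Dsp and Prox1 hold replicate 2, with 12.8 and 21.2, the highest of that day for both genes. The other rAAV-control mice had 3.01 and 9.37 for Dsp and 9.34 and 19.3 for Prox1, against rAAV-OVA means of 7.87 and 15.8. At 28 days it was 73.0% for Dsp, 87.6% for Tdo2, 104% for Prox1, 110.4% for C1ql2 and 133% for Calb1, and the groups overlapped for all 5 genes on both days. Relative to the sum of the 12 other granule cell genes, the values without overlap were 17.5% for Tdo2 at 5 days and 67.6% for C1ql2 at 8 days. With overlap, the others at 5 days ran from 70.9% for Calb1 to 127% for Prox1, those at 8 days from 87.8% for Tdo2 to 119.6% for Calb1, and those at 28 days from 68.7% for Dsp to 127% for Calb1. For Prox1 at 5 days, rAAV-OVA replicate 1 had 289, against 131 to 136 in the other rAAV-OVA mice. For Calb1 at 28 days, the library with Penk at 668 CPM had 271. The other rAAV-OVA mice had 98.2 to 163 and the rAAV-control mice 113 to 142.

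The 12 other granule cell genes were compiled by hand and tested over all 15648 genes. At 5 days 3 of them were lower past both limits, 0 were higher and 9 did not pass. Plk5, a polo-like kinase family member found in neurons, fell most, from 17.4 ± 3.07 CPM in rAAV-control mice to 3.48 ± 0.492 CPM in rAAV-OVA mice (n = 4 each), with a Log2FC of −2.20 (SE 0.32), and the quasi-likelihood F-test of edgeR returned an FDR of 3.9e-05. Its 4 rAAV-OVA mice lay between 2.95 and 4.07 CPM and its rAAV-control mice between 14.4 and 20.8 CPM, without overlap. Lct, the lactase gene, which serves as a granule cell marker in mouse brain, went from 72.2 ± 20.8 CPM down to 23.7 ± 6.51 CPM (Log2FC −1.84, SE 0.35, FDR 0.00051 in edgeR). Lrrtm4, an adhesion protein of granule cell synapses, had a Log2FC of −0.67 (SE 0.23, FDR 0.034 in edgeR), which lost the call in 23 of 31 fits with a mouse left out, among them those without rAAV-OVA replicate 1 or 3 at 5 days, at −0.58 and −0.55. With a mouse left out, the number of lower genes was 2 in 20 of 31 fits. Plk5 and Lct passed in all of them. Glis3 and Dock10 had Log2FC of 0.65 and 0.17. The list's median Log2FC was −0.40, against −0.01 for all genes.

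By 8 days 2 of the 12 were lower past both limits, Plk5 with a Log2FC of −1.07 (SE 0.31) and Lrrtm4 with −0.69 (SE 0.24), at FDR values of 0.02 and 0.049 in edgeR. The number was 0 without rAAV-control replicate 2 or 3 at 8 days, rAAV-OVA replicate 1 at 8 days, or rAAV-OVA replicate 2 or 3 at 2 days. It was 5 without rAAV-control replicate 1 or rAAV-OVA replicate 2 at 8 days, 3 without rAAV-OVA replicate 3 at 28 days, and 1 without any of 17 others. At 28 days 4 were lower, none was higher and 8 did not pass. Lct went from 66.8 ± 6.24 CPM down to 27.7 ± 15.9 CPM (n = 4 each, Log2FC −1.66, SE 0.37, FDR 0.0018 in edgeR), and its groups did not overlap. Fam163b had a Log2FC of −0.94, Plk5 of −0.92 and C1ql3, a relative of C1ql2, of −0.78, with SE from 0.26 to 0.30. Without rAAV-OVA replicate 3 or 4 at 28 days, Fam163b stood at −0.66 or −0.85 and C1ql3 at −0.50 or −0.57, and neither passed. Plk5 passed without either of them and lost the call without rAAV-OVA replicate 2 or rAAV-control replicate 1 or 2 at 28 days, at −0.81, −0.83 and −0.85, while Lct passed in all fits with a mouse left out. The number was 3 without rAAV-OVA replicate 4 at 28 days. It was 2 without rAAV-OVA replicate 3 at 28 days, rAAV-OVA replicate 4 at 2 days or rAAV-control replicate 2 at 28 days, 6 without rAAV-control replicate 3 at 28 days, and 0 within either batch alone. The medians were −0.55 at 8 days and −0.56 at 28 days. At 2 days 0 of the 12 passed, with 2 at an unadjusted p under 0.05 in edgeR and a median of 0.20.

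**Figure D4:**
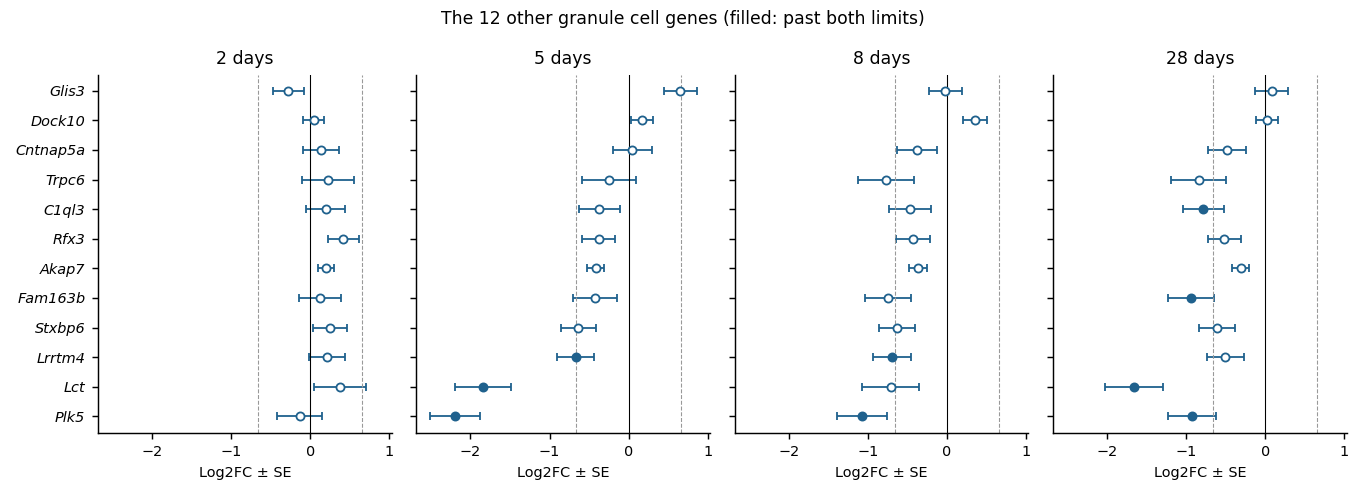
Log2FC with 1 SE of the 12 other granule cell genes at 2, 5, 8 and 28 days, with filled points for genes past both limits and dashed lines at 0.66 on either side of 0. Filled points are Plk5, Lct and Lrrtm4 at 5 days, Plk5 and Lrrtm4 at 8 days, and Plk5, Lct, Fam163b and C1ql3 at 28 days.

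Immature granule cell genes moved in both directions. Of 10 tested, Neurod1, a proneural transcription factor of young granule cells, fell at 5 days with a Log2FC of −1.17 (SE 0.31, FDR 0.0061 in edgeR), while Sox11, which marks newborn neurons, rose with 1.18 (SE 0.30, FDR 0.0055). At 28 days Neurod2 and Neurod1 fell with −1.46 and −0.86, and Igfbpl1 and Draxin rose with 1.55 and 1.40, at FDR values up to 0.039 in edgeR. Neurod2 was lower without overlap, and the groups overlapped for Neurod1, Igfbpl1 and Draxin. Neurod1 lost the call in 16 of 31 fits with a mouse left out, with −0.60 without rAAV-OVA replicate 3 and −0.49 without replicate 4. Without replicate 4, Igfbpl1 stood at 0.17 and did not pass, and Neurod2 at −0.87 did. Without replicate 3, Igfbpl1 at 1.00 and Draxin at 0.82 still passed. At 2 and 8 days 0 of the 10 passed in edgeR. The list's median Log2FC was 0.02 at 5 days and 0.21 at 28 days.

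Lists of other hippocampal neurons were counted in the same way, against 4.67%, 0.588% and 4.86% of all genes called lower at 5, 8 and 28 days. Of 8 CA1 pyramidal cell genes, 4 fell at 5 days, led by Fibcd1 with a Log2FC of −1.31, 0 passed at 8 days in edgeR and 6 fell at 28 days, led by Spink8 with −1.69. Their medians were −0.69, −0.44 and −1.01. At 28 days the number was 3 without rAAV-OVA replicate 4 and 7 without replicate 3, where Spink8 stood at −0.82 and did not pass. Of 10 CA2 and CA3 genes, 3 fell at 5 days, 1 at 8 days and 5 at 28 days. The 3 became 1 without rAAV-OVA replicate 1 and 2 without replicate 3 at 5 days. The call at 8 days was that of Iyd, with −0.75, which was lost in 17 of 31 fits with a mouse left out, the one without rAAV-control replicate 2 among them. On the last day Iyd had −2.13, and Coch rose with 1.41. Of 10 pan-neuronal genes, 0 passed at 5 and 8 days in edgeR and 4 fell at 28 days, among them Snap25, a protein of synaptic vesicle fusion, with −0.89. The 4 became 1 without rAAV-OVA replicate 4, and Snap25 passed in all fits with a mouse left out. Of 8 interneuron genes, Pvalb fell at 5 days with −0.96, 0 passed at 8 days and Slc32a1 rose at 28 days with 0.81. Slc32a1 and Coch had Log2FC of −0.086 and −0.16 without rAAV-OVA replicate 4 at 28 days, and of 0.18 and 0.13 without replicate 3, where neither passed.

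Activity-regulated genes of neurons, which granule cells also induce, were higher at 5 days, with 5 of 8 past both limits and 9.56% of all genes called higher. Inhba had a Log2FC of 3.58, Nptx2 of 2.38, Npas4 of 2.01, and Fosb and Fos of 1.78 and 1.76. At 8 days 0 of 8 passed in edgeR, where 9.36% of all genes were called higher. At 28 days Bdnf fell with −1.52 and Penk rose with 2.40, where 12.7% of genes were called higher, and Penk stood at −0.61 without rAAV-OVA replicate 4 and at 1.144 without replicate 3. It did not pass without rAAV-control replicate 3 at 28 days, at 1.76. Bdnf stood at −0.94 without rAAV-OVA replicate 4 and passed.

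Markers of other cells moved with the same comparison. All 4 T cell and monocyte genes that were tested, of 7 listed, rose at 5, 8 and 28 days, and their sum was between 160 and 281 CPM in rAAV-OVA mice at 5 days and between 0.671 and 5.22 CPM in rAAV-control mice. The number was 2 at 8 days without rAAV-control replicate 3 of that day, and 3 at 28 days without rAAV-OVA replicate 1 or 2 or rAAV-control replicate 2 or 4 of that day. Of 4 microglia genes, 2 rose at 5 days and 3 at 28 days, and the 2 at 5 days ran from 0 to 2 with a mouse of that day left out. Among oligodendrocyte lineage genes, Mbp and Mog fell at 5 days with −0.93 and −1.05, Mbp without a call at −0.63 when rAAV-control replicate 4 was left out, and of 5 astrocyte genes Gja1 fell at 5 days with −0.91. The thalamic and choroid plexus sum of 5 genes ranged from 107 to 186 CPM in rAAV-OVA mice and from 69.3 to 3715 CPM in rAAV-control mice at 5 days, with Ttr, Folr1 and Kl past both limits downward. Those calls rested on rAAV-control replicate 2, with 3515 CPM of Ttr against 19.4 to 98.1 CPM in the other rAAV-control mice and 21.7 to 95.8 CPM in rAAV-OVA mice. Without that library the Log2FC were −1.39, −1.39 and −0.78, and none of the 3 genes passed. Of the same list, Prkcd rose at 8 days with 1.07, a call lost in 13 of 31 fits with a mouse left out but not without rAAV-control replicate 2. At 28 days Prkcd and Tcf7l2 rose with 1.22 and 0.89, and stood at 0.49 and −0.035 without rAAV-OVA replicate 4, where neither passed. Without replicate 3, Tcf7l2 stood at 0.61 and did not pass. Of 6 leptomeningeal genes, Ogn fell at 5 days with −1.61, or −1.08 and no call without rAAV-control replicate 2, and Dcn rose at 28 days with 1.97, or 0.73 and no call without rAAV-OVA replicate 3. At 2 days 0 genes of these lists passed in edgeR. The part of these cells and tissues in the levels of the 5 members was not tested.

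Among rAAV-control mice, the levels at 5, 8 and 28 days were compared with those at 2 days. The same rAAV-control mice are the reference of the differences that the members were selected on, so these values are not independent of that choice. None of the 5 genes passed both limits on any of these days in edgeR or DESeq2, where 1.93%, 0.537% and 2.96% of all genes did in edgeR. At an unadjusted p under 0.05 in edgeR there were 2 members on the first, 2 on the second and 1 on the last of these days, against 2997, 2312 and 2134 of all 15648 genes. The Log2FC of Tdo2 was 0.98 (SE 0.41), 1.23 (SE 0.45) and 1.06 (SE 0.42) at 5, 8 and 28 days. That of Calb1 was 0.69, 0.68 and 0.58. For Prox1 it ran from 0.10 to 0.39, for Dsp from −0.06 to 0.57 and for C1ql2 from −0.16 to 0.48. The rAAV-control mice at 2 days are the reference of each of these differences and also of the rAAV-OVA mice at 2 days, so the Tdo2 level of 3.11 ± 1.78 CPM in those 4 mice enters both.

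Covariation within groups does not use the difference between the group means. Each mouse's log2(CPM + 1) was taken as its deviation from the mean of its own group, and the 10 pairs of members were correlated over 31 mice, with 100000 permutations of the mice within groups. All 10 coefficients were above 0, as were those of 49.6% of the 122422128 pairs of all genes, of 84.8% of the 66 pairs of other granule cell genes and of 100% of the 45 pairs of pan-neuronal genes. Prox1 and Dsp gave a Pearson r of 0.67 (2-sided permutation test, p = 0.00184, 0.0086 adjusted over the 10 pairs) and a Spearman rho of 0.67 (p = 0.00121, adjusted 0.009). Prox1 and C1ql2 gave an r of 0.67 (permutation p = 0.00259, adjusted 0.0086) and a rho of 0.62 (p = 0.00295, adjusted 0.009). Tdo2 and Calb1 gave an r of 0.66 (permutation p = 0.00343, adjusted 0.0086) and a rho of 0.62 (p = 0.00359, adjusted 0.009). Dsp and Tdo2 gave an r of 0.63 (permutation p = 0.00092, adjusted 0.0086) and a rho of 0.59 (p = 0.00357, adjusted 0.009). These 4 pairs and Dsp with C1ql2, at an r of 0.49 (permutation p = 0.02496, adjusted 0.0499) and a rho of 0.50 (p = 0.01431, adjusted 0.0286), passed 0.05. These 5 had r of 0.48 or more, which was reached by 50% of the pairs of members, 10.4% of the pairs of all genes, 43.9% of those of other granule cell genes, 46.4% of those of interneuron genes and 88.9% of those of pan-neuronal genes. The same share was 13.3% for immature granule cell genes, 26.7% for CA2 and CA3 genes, 32.1% for CA1 genes and 42.9% for activity-regulated genes. It was 50% for astrocyte, 60% for oligodendrocyte lineage and 66.7% for microglia genes. For leptomeningeal and for T cell and monocyte genes it was 100%, and for thalamic and choroid plexus genes 40%. Genes of other lists, neuronal or not, thus varied together within groups to differing degrees, and nothing particular to the 5 members is read from the number of pairs.

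The other 5 pairs had r between 0.36 and 0.41, with adjusted permutation p from 0.091 to 0.28, and rho between 0.13 and 0.42, with adjusted p from 0.067 to 0.59. Without the 2 mice farthest from the median of the first gene, r was 0.83 for Prox1 and Dsp, 0.64 for Prox1 and C1ql2, 0.53 for Tdo2 and Calb1, 0.63 for Dsp and Tdo2 and 0.43 for Dsp and C1ql2. Within the 23 mice of batch 1 these coefficients were 0.50, 0.48, 0.76, 0.67 and 0.41 in the same order, and 2 pairs passed the adjusted limit there. Batch 2 held 8 mice in 4 groups of 2 and gave no value of its own. With deviations taken within group and batch they were 0.56, 0.65, 0.71, 0.68 and 0.43. C1ql2 and Calb1 gave 0.41 over all mice and −0.11 in batch 1. The number of pairs that passed ran from 4 to 7 when 1 mouse was left out. It was 4 in 20 of 31 such fits, 5 in 8, 7 without rAAV-OVA replicate 1 at 5 days and 6 without rAAV-OVA replicate 4 at 28 days.

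**Figure D5:**
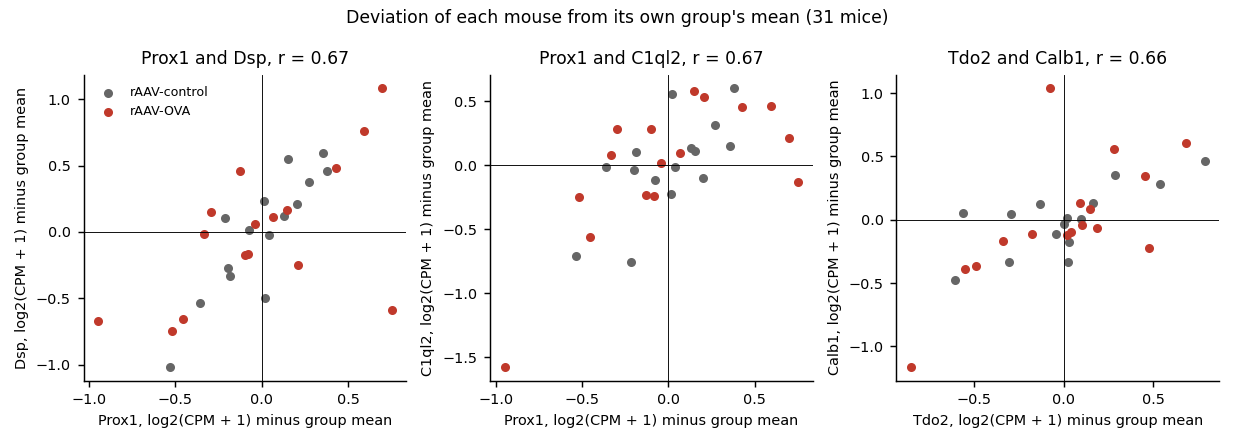
Deviation of log2(CPM + 1) from the mouse's own group mean for Prox1 and Dsp, Prox1 and C1ql2, and Tdo2 and Calb1, 1 point per mouse, grey for rAAV-control and red for rAAV-OVA. The points rise together with r of 0.67, 0.67 and 0.66, and the rAAV-OVA mouse farthest to the right in the Prox1 panels has lower Dsp than its group.

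Genes with the most similar profile to each member were found by the Pearson r of log2(CPM + 1) over all 31 mice, as a description. Sema5a and Abr, both at 0.87, and Kbtbd11, at 0.85, were closest to Prox1. For Dsp they were Orai2, Ppp1r13b and Napepld, for C1ql2 Insyn1, Elk1 and Lrfn3, for Tdo2 Rtl3, C630031E19Rik and Egfl6, and for Calb1 Negr1, Pnma2 and Magee2, with r from 0.85 to 0.88. No member was among the 3 closest genes of another. These coefficients share the libraries, the vectors and the days, and were not tested.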

How the data were processed

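RNA of the left hippocampus of 31 mice was sequenced as paired reads from TruSeq libraries. Reads were trimmed with fastp by the authors and quantified against the GENCODE M29 transcriptome with Salmon 1.8.0, whose GC bias option was on, and tximeta gave sums per gene. The values are estimated counts in whole numbers, as deposited by the authors and not normalized. The authors kept a gene with 15 counts or more in 15 mice or more, which left 15648 genes. The processing notes name DESeq2 1.36.0 as well. Both deposited tables hold the same values (0 cells differ), and 0 columns were left unused.

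Counts were fitted with edgeR 4.0.16 in R 4.3.3 (TMM, robust quasi-likelihood F-test), with 8 groups and 2 surrogate variables from sva 3.50.0, all mice in 1 model, and FDR by Benjamini-Hochberg over all genes. A call needed an FDR up to 0.05 together with a Log2FC of 0.66 or more in size. The labels do not say whether mice shared a litter, so p-values measure the spread between these mice. Mice of a group always differed beyond counting noise (lowest chi-square per gene 11.9). Pairs of members were tested with permutations in Python 3.11.15 and numpy 2.4.6. Salmon divides reads of similar transcripts by probability. Total counts per mouse ran from 19046977 to 57407902, and counting error is part of the spread that the model estimates. The fit and the permutations were tested on simulated data.

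Members and lists were chosen with earlier results of these data known, and the lists are hand-made. By rule, the genes named are the 5 members in every mouse, from each list up to 4 genes a day past both limits by the size of Log2FC, all 12 other granule cell genes, and the 3 genes most correlated with each member. Where a list had more than 4 calls, counts include all of them, and Fos at 5 days was named after its value was seen. Alternatives were DESeq2 1.42.0 with and without ashr 2.2.63, voom from limma 3.58.1, size factors or library totals in place of TMM, no covariates, the batch label, a stricter filter, the compared groups or a batch alone, a pseudocount of 0.1 in place of 1, and each mouse left out. Apart from the promoter windows of GRCm38.p6, gene coordinates were not used, since the genome at hand is of another build than the counts. Some list genes are not reported here.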

Additional observations from a re-analysis of the deposited data

Results flagged for a closer look

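In 35 sets of 4 values, 1 for each of the 5 genes in each group of 4 mice, 3 held a mouse whose gap to the nearest of the others was unusually wide for the range of its group, and chance gives about 5% of such sets. The sets share their mice. Prox1 was at 171 CPM in rAAV-OVA replicate 1 at 5 days, with a gap of 0.864 of the group's range. C1ql2 was at 13.7 CPM in rAAV-OVA replicate 3 at 28 days, with a gap of 0.903 of the range, in the library whose pan-neuronal sum of 3365 CPM was the lowest. Tdo2 was at 4.61 CPM in rAAV-OVA replicate 3 at 2 days, below the other three, with a gap of 0.874 of the range.

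For 2 members, the rAAV-OVA mice of 2 days all lay on one side of the rAAV-control mean and those of 5 days all on the other. For Tdo2, all 4 rAAV-OVA mice lay above the rAAV-control mean at 2 days, with a Log2FC of 0.94, and all lay below it at 5, 8 and 28 days, with Log2FC of −3.09, −1.001 and −0.98. For Calb1, all 4 rAAV-OVA mice lay above the rAAV-control mean at 2 days, with a Log2FC of 0.47, and below it at 5 days, with a Log2FC of −0.72. At 8 and 28 days 1 rAAV-OVA mouse each lay above the mean, at 122% and 160.0% of it. The difference between days was not tested for either gene, since the members were selected on these values.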

How the results depend on the processing

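The number of members lower past both limits was 1 at 5, 8 and 28 days. At 5 days it became 2 with DESeq2, without covariates, with the batch label or with the compared groups alone, and 0 with 15 counts required in every mouse, a filter that removes Tdo2 and leaves 13779 genes; it ran from 1 to 2 with a mouse left out. At 8 days it became 0 with ashr, voom, library totals, that filter or the compared groups alone, and ran from 0 to 1. At 28 days it became 3 with voom and 0 in batch 1 or batch 2 alone, and ran from 0 to 2. Of the other granule cell genes, 2 at 8 days became 1 with ashr, DESeq2 size factors, library totals or the filter and 0 with voom or the compared groups alone, and ran from 0 to 5. The 4 at 28 days became 2 with ashr and 0 with the compared groups alone or either batch alone, and ran from 2 to 6. The 3 at 5 days ran from 2 to 4. Counts at 2 days and in rAAV-control mice stayed at 0. The 5 correlated pairs became 2 in batch 1 alone and ran from 4 to 7. The causes were not tested.

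At 28 days 4 genes outside the members reversed in batch 1 alone, Coch to −1.21, Slc32a1 to −0.77, Penk to −0.51 and Tcf7l2 to −0.15. With a mouse left out, Coch ran from −0.16 to 1.78, Slc32a1 from −0.086 to 1.142, Penk from −0.61 to 3.13 and Tcf7l2 from −0.035 to 1.10. Over single genes, pairs of members and all alternatives, 4276 values were labelled the same, 414 weaker, 6 stronger, 6 moved and 9 reversed. A member's difference between the vectors was labelled the same when it shifted by less than the gene's pooled SD within groups. A lost call, or a turn of sign without a call, could thus still count as the same. Prox1 at 5 days, from −0.17 to 0.05, was such a value. For pairs and for days of rAAV-control mice, a turn of sign without a call also counted as the same. With 3 or 4 mice a group, the SE of the members' Log2FC was 0.27 to 0.47. No paired analysis was possible because the replicate numbers only count the mice within a group and carry no pairing.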
